A study of Rattus norvegicus with 16 samples.

Results

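The tubular injury markers are 10 genes whose transcripts are widely used to follow damage and repair of the kidney tubule: Vim, Krt8, Krt18, Krt19, Clu, Spp1, Cd44, Anxa2, Havcr1 and Lcn2. They were chosen by name and are 10 of the 4736 genes that the array annotation names singly. The array carried 15 probe sets for them, a probe set being a group of oligonucleotides for a transcript. Of these, 9 probe sets for 8 genes were bright enough to be tested, whereas Havcr1 and Lcn2 lay below the brightness limit.

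Whole kidneys of 8 rats were compared on 16 one-colour arrays, 1 array per kidney. The right kidney was given ACTH in 2 rats (rats 1 and 5), DEX in 2 rats (rats 3 and 7) and saline in 4 rats (rats 2, 4, 6 and 8), and the left kidney of every rat was its own control. ACTH is adrenocorticotropic hormone, the pituitary peptide that drives the adrenal cortex to release glucocorticoids. DEX is the submitters' abbreviation and is kept as written. The labels give no strain, sex, age, dose, route or duration, and no genetic alteration is named for any group. Whether a hormone given to the right kidney also reached the left was not tested. The description of the series speaks of 2 rats per treatment but 4 rats carry saline in their titles, and grouping went by title.

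In a healthy tubule the epithelium is polarised and carries few intermediate filaments. After ischaemic or toxic damage surviving tubule cells spread and dedifferentiate, switch on vimentin and simple-epithelium keratins, and secrete osteopontin, clusterin and lipocalin 2, while kidney injury molecule 1 appears on the proximal tubule. Several of these genes are also expressed in undamaged kidney, keratins 8, 18 and 19 in collecting duct and thin limb epithelium and vimentin in glomeruli, vessels, interstitium and fat.

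Signals are the deposited intensities on a linear scale, and changes are differences of log2(signal + 16). A right minus left change compares the 2 kidneys of 1 rat. A hormone effect is the mean of these changes in ACTH or DEX rats less their mean in saline rats, so a positive one is higher under the hormone. Effects carry the standard error (SE) of a limma fit over 5244 probe sets, with Benjamini-Hochberg adjustment over all of them and a threshold of 0.05. In whole tissue, fewer cells of a type and less RNA per cell cannot be told apart.

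No injury marker passed the test for an ACTH effect over saline: 0 of 9 tested probe sets had an adjusted p below 0.05 in limma, against 0.496% of all tested probe sets. At an unadjusted p below 0.05 there were 3 of 9, from Vim, Krt8 and Krt18, against 9.44% of all. The median effect over the 8 tested genes was 0.15, against -0.00 over all tested probe sets, and 6 of 8 genes had an effect above 0, against 49.9% of all probe sets. The sizes of the right minus left changes differed between the 2 ACTH rats. A change above 0.5 was seen in rat 1 for Vim alone. For Vim and Krt8 the right minus left change in both ACTH rats was above that of every saline rat. These were 2 of 9 tested probe sets, against 7.82% of all.

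Because Vim, Krt8 and Krt18 had the 3 highest ACTH effects among the tested genes, their promoters are shown. Each is the stretch of 250 bases before and 50 bases after the gene's start, from RefSeq on the GRCr8 assembly, with matches to the searched motifs in capitals. RefSeq promoters were matched to 8 of the 10 genes. The Vim promoter lies at chr17:81577011-81577310 on the plus strand, that of Krt8 at chr7:135010290-135010589 on the minus strand and that of Krt18 at chr7:135035918-135036217 on the plus strand. Krt8 and Krt18 are neighbouring genes on chromosome 7.
Vim: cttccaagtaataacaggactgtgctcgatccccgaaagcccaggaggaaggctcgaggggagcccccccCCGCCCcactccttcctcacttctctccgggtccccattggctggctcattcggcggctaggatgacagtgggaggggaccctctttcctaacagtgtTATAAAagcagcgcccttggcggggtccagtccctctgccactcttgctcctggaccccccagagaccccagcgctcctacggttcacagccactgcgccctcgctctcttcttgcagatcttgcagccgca
Krt8: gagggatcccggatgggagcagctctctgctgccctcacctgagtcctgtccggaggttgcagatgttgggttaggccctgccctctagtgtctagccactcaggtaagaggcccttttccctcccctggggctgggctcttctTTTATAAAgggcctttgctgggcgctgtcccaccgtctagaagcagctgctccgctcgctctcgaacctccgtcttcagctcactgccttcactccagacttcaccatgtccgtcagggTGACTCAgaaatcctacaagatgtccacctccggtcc
Krt18: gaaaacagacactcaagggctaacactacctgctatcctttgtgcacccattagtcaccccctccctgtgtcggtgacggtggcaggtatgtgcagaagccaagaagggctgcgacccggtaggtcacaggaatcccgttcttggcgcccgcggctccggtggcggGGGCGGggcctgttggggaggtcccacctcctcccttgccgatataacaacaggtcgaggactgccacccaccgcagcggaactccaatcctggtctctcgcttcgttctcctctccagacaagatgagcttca
Both strands were searched for 4 motifs: TGTTCT, the core of the element bound by the glucocorticoid receptor, TGANTCA, bound by AP-1 factors, GGGCGG, bound by Sp1, and TATAAA, the TATA box. Vim held GGGCGG on the minus strand, beginning 180 bases before the start, and TATAAA beginning 82 bases before it. Krt8 held TATAAA on both strands in 1 overlapping stretch, beginning 106 and 104 bases before the start, and TGACTCA beginning 13 bases after it. The start used for Krt8 is the first base of an ATG, and TGACTCA follows that ATG. Whether transcription of Krt8 begins at that start was not tested. Krt18 held GGGCGG beginning 84 bases before the start. TGTTCT was found in 0 of the 8 promoters, against 20.1% of 27457 promoters of the same length. The shares of those promoters that held the other motifs were 7.33% for TGANTCA, 34.9% for GGGCGG and 14.3% for TATAAA. A match describes the letters and is not evidence of binding.

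Vim encodes vimentin, the intermediate filament of mesenchymal cells, which tubule cells take up during repair. Its signal was 626 and 181 in the ACTH right kidneys of rats 1 and 5, against 159, 145, 160 and 126 in the saline right kidneys of rats 2, 4, 6 and 8. In the 8 left kidneys it ran from 129 to 196 with a median of 159. The right kidney of rat 1 stood above every other array, while that of rat 5 was inside the range of the left kidneys. The right minus left change was 1.66 in rat 1 and 0.22 in rat 5, against -0.09, 0.14, -0.03 and -0.26 in the saline rats. Both ACTH rats lay above all 4 saline rats, by a narrow margin in rat 5. The ACTH effect on Vim was 1.00 ± 0.30 (SE; 95% interval 0.36 to 1.64), a fold of 2.00, with an adjusted p of 0.219 in limma. It was 0.28 without rat 1 and 1.72 without rat 5, so rat 1 decided its size.

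Vim is expressed by fat, vascular and interstitial cells, so the summed signals of their markers are given beside it. The adipose list (6 of 8 genes on the array, none of them listed at 0) summed to signals of 1183 to 10181 in the ACTH right kidneys, 592 to 609 in the DEX right kidneys, 598 to 843 in the saline right kidneys and 546 to 3210 in the left kidneys. Its mean right minus left change was 1.72 in rat 1 and 0.57 in rat 5, with -1.62 and -1.45 in the DEX rats and -1.39 to 0.57 in the saline rats. Adipoq and Retn, which define fat cells, were not analysed here. With the adipose score as a covariate the ACTH effect on Vim was 0.70, with an adjusted p of 0.526 in limma. Smooth muscle and mesangial markers (8 of 8 on the array) summed to 1391 to 1457 in the ACTH right kidneys, 1104 to 1228 in the DEX right kidneys, 943 to 1089 in the saline right kidneys and 970 to 1325 in the left kidneys. The fibroblast list had a mean change of -0.59 in rat 1 and -0.30 in rat 5. It was -0.44 and -0.40 in the DEX rats and -0.01 to 0.23 in the saline rats. The leukocyte list had a mean change of -0.60 in rat 1 and -0.04 in rat 5. It was -0.13 and -0.15 in the DEX rats and -0.02 to 0.10 in the saline rats. Of 7 tested fibroblast markers 1 passed for the ACTH effect, against 0.496% of all probe sets. It was Col3a1, the type III collagen chain, at -1.07 ± 0.20 with an adjusted p of 0.0448 in limma. Col3a1 lost the call without any of rats 1, 2, 3, 4, 6, 7 or 8. The part of these cells in the Vim values was not tested beyond the covariate fit.

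**Figure D1:**
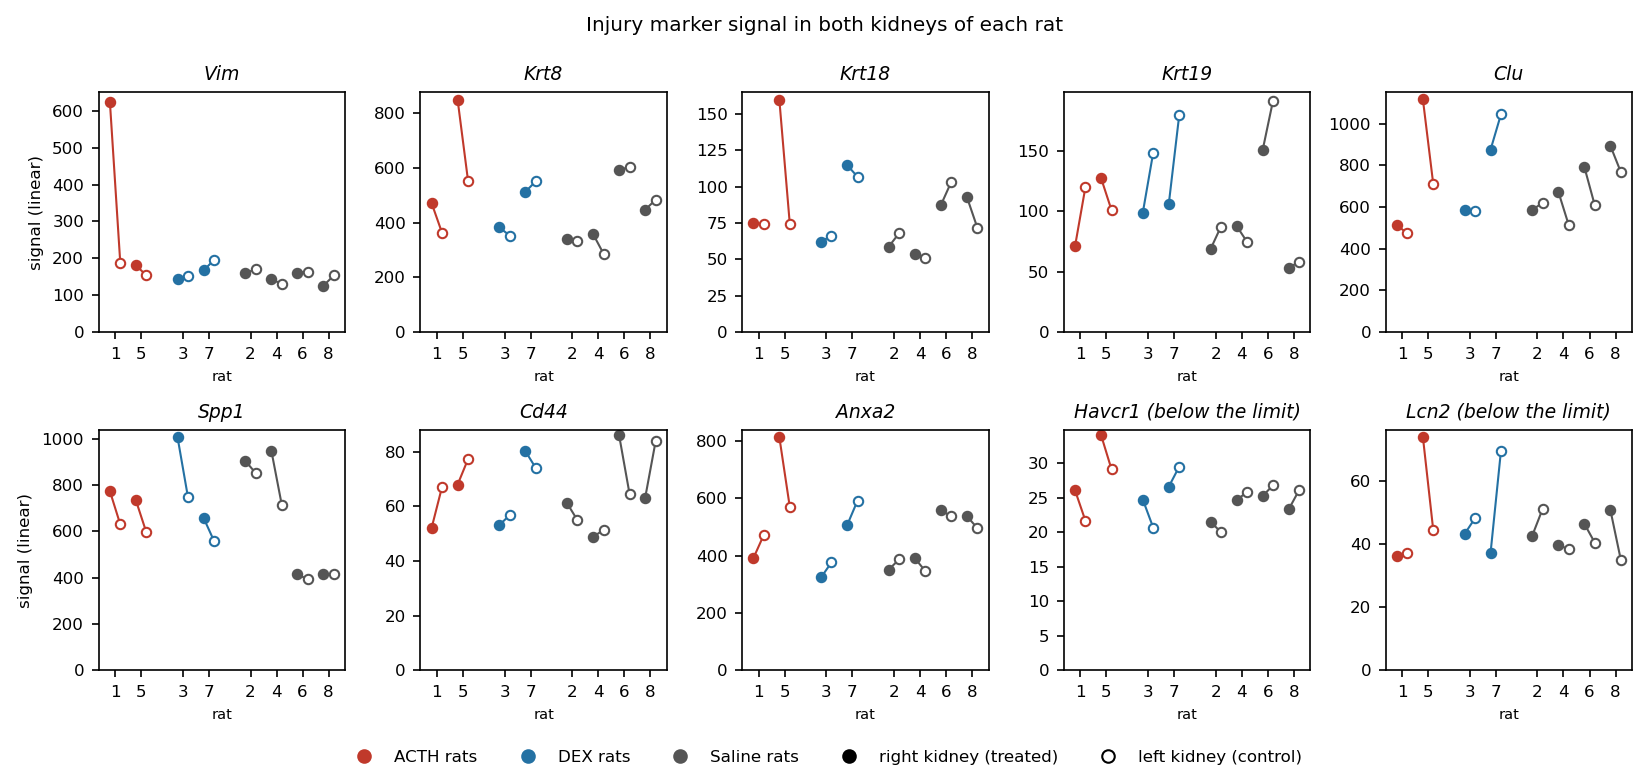
Signal of each injury marker (vertical axes, linear intensity, each starting at 0) in both kidneys of each rat (horizontal axis, rat number), using the brightest probe set of each gene. Filled points are treated right kidneys and open points left control kidneys, joined for each rat and coloured by treatment. Vim stands at 626 in the right kidney of ACTH rat 1, and Krt8, Krt18, Clu and Anxa2 are highest in the right kidney of ACTH rat 5.

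Krt8 and Krt18 encode the paired keratins of simple epithelia, which assemble with each other into filaments. Krt8 had a signal of 471 and 848 in the ACTH right kidneys, against 341, 358, 593 and 447 in the saline right kidneys and 286 to 602 in the left kidneys (median 423, n = 8). The right kidney of rat 5 was the highest of all arrays, and that of rat 1 lay inside the saline range. Its change was 0.36 in rat 1 and 0.61 in rat 5, against 0.04, 0.31, -0.02 and -0.11 in the saline rats, so both ACTH rats were above all saline rats. The ACTH effect was 0.43 ± 0.18 (95% interval 0.05 to 0.81), with an adjusted p of 0.452 in limma.

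Krt18 was measured by 2 probe sets, whose changes over the 8 rats had a Pearson correlation of 0.96. The brighter one had a signal of 74.8 and 159 in the ACTH right kidneys, against 58.7, 53.3, 87.2 and 92.8 in the saline right kidneys and 50.7 to 107 in the left kidneys (median 73.0, n = 8). Rat 5 stood apart and rat 1 did not, with changes of 0.96 in rat 5 and 0.01 in rat 1. The second probe set showed the same order, with 0.90 in rat 5 and 0.16 in rat 1, against -0.22 to 0.17 in the saline rats. The ACTH effects were 0.49 ± 0.23 and 0.58 ± 0.19, with adjusted p of 0.536 and 0.321 in limma. Without rat 5 the effects were 0.01 and 0.20, and without rat 1 they were 0.96 and 0.95, so rat 5 decided their size.

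Keratins 8 and 18 are normally strongest in the collecting duct, and its markers were also higher in rat 5. The collecting duct and medulla list (9 of 9 on the array, none listed at 0) summed to 3689 to 6962 in the ACTH right kidneys, 3471 to 4024 in the DEX right kidneys, 3785 to 4678 in the saline right kidneys and 3814 to 4577 in the left kidneys. Its mean change was 0.51 in rat 5 and -0.16 in rat 1, with -0.10 and 0.02 in the DEX rats and -0.15 to 0.18 in the saline rats. The erythrocyte list (2 of 4 on the array) changed by 0.88 in rat 5 and -0.33 in rat 1. The part of either in the keratin values was not tested.

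Krt19 encodes a keratin of duct epithelium and of tubule cells in repair. Its brighter probe set had a signal of 71.1 and 127 in the ACTH right kidneys, 98.7 and 106 in the DEX right kidneys, and 68.5, 87.8, 150.4 and 52.7 in the saline right kidneys. In the left kidneys it ran from 58.3 to 192 (median 111, n = 8). The ACTH rats split, with changes of -0.65 in rat 1 and 0.29 in rat 5, and the ACTH effect was -0.04 ± 0.23 (95% interval -0.55 to 0.46). The dimmer, untested probe set split likewise, with -0.30 in rat 1 and 0.21 in rat 5.

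Anxa2 encodes annexin A2, a calcium-dependent phospholipid binding protein of the cell cortex. Its signal was 391 and 813 in the ACTH right kidneys, against 351, 391, 558 and 538 in the saline right kidneys and 346 to 592 in the left kidneys (median 484, n = 8). Rat 5 was the highest array, with a change of 0.50, and rat 1 had a change of -0.26, below all saline rats. The ACTH effect was 0.07 ± 0.21 (95% interval -0.38 to 0.52).

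Among the secreted markers, Clu encodes clusterin, an extracellular chaperone excreted in urine after tubule damage. Its signal was 513 and 1118 in the ACTH right kidneys, against 586, 674, 792 and 894 in the saline right kidneys and 474 to 1045 in the left kidneys (median 614, n = 8). Its change was 0.11 in rat 1 and 0.64 in rat 5, against -0.08, 0.38, 0.37 and 0.21 in the saline rats, and rat 1 lay within the saline range. The ACTH effect was 0.16 ± 0.20 (95% interval -0.28 to 0.60).

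Spp1 encodes osteopontin, a secreted phosphoprotein that binds integrins and CD44. Its signal was 775 and 735 in the ACTH right kidneys, 1007 and 658 in the DEX right kidneys, and 906, 949.6, 415 and 415 in the saline right kidneys. The left kidneys ran from 393 to 852 with a median of 613. The right kidney was above the left in 7 of 8 rats, by 0.29 and 0.29 in the ACTH rats, 0.42 and 0.23 in the DEX rats, and 0.09, 0.40, 0.08 and -0.01 in the saline rats. The treatments overlapped, with an ACTH effect of 0.15 ± 0.17 (95% interval -0.22 to 0.52) and a DEX effect of 0.19 ± 0.17 (-0.18 to 0.56). Cd44, the receptor for hyaluronan and osteopontin, had a signal of 52.1 and 68.1 in the ACTH right kidneys, against 48.9 to 86.0 in the saline right kidneys and 51.3 to 83.9 in the left kidneys. Its ACTH effect was -0.24 ± 0.18 (95% interval -0.62 to 0.14), and 2 of its 3 dimmer probe sets gave effects of 0.02 and 0.07, on the other side of 0.

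Havcr1 encodes kidney injury molecule 1, a proximal tubule receptor for dying cells that is barely made in healthy kidney. Its signal was 26.1 and 34.1 in the ACTH right kidneys, 24.7 and 26.6 in the DEX right kidneys, 21.5, 24.6, 25.3 and 23.3 in the saline right kidneys, and 20.0 to 29.5 in the left kidneys. All 16 values were below the lowest mean signal of a tested probe set, 60.5. Both ACTH rats had a change above all saline rats, 0.16 and 0.15 against at most 0.06, and the DEX rats had changes of 0.15 and -0.10, so ACTH and DEX overlapped. In a fit without the brightness limit the ACTH effect was 0.19 ± 0.10, with an adjusted p of 0.725 in limma.

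Lcn2 encodes lipocalin 2, an iron-siderophore carrier released by stressed distal tubules and by neutrophils. Its signal was 36.2 and 74.2 in the ACTH right kidneys, 43.2 and 37.2 in the DEX right kidneys, and 42.7, 39.7, 46.5 and 50.8 in the saline right kidneys. The right kidney of rat 5 was the highest of the 16 arrays and the left kidney of DEX rat 7 was next at 69.7. The ACTH effect was 0.18 ± 0.20 and the DEX effect -0.50 ± 0.20 without the brightness limit, with adjusted p of 0.946 and 0.999 in limma. In the DEX rats the change was -0.12 in rat 3 and -0.69 in rat 7, and these differed by more than the SE of the effect.

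**Figure D2:**
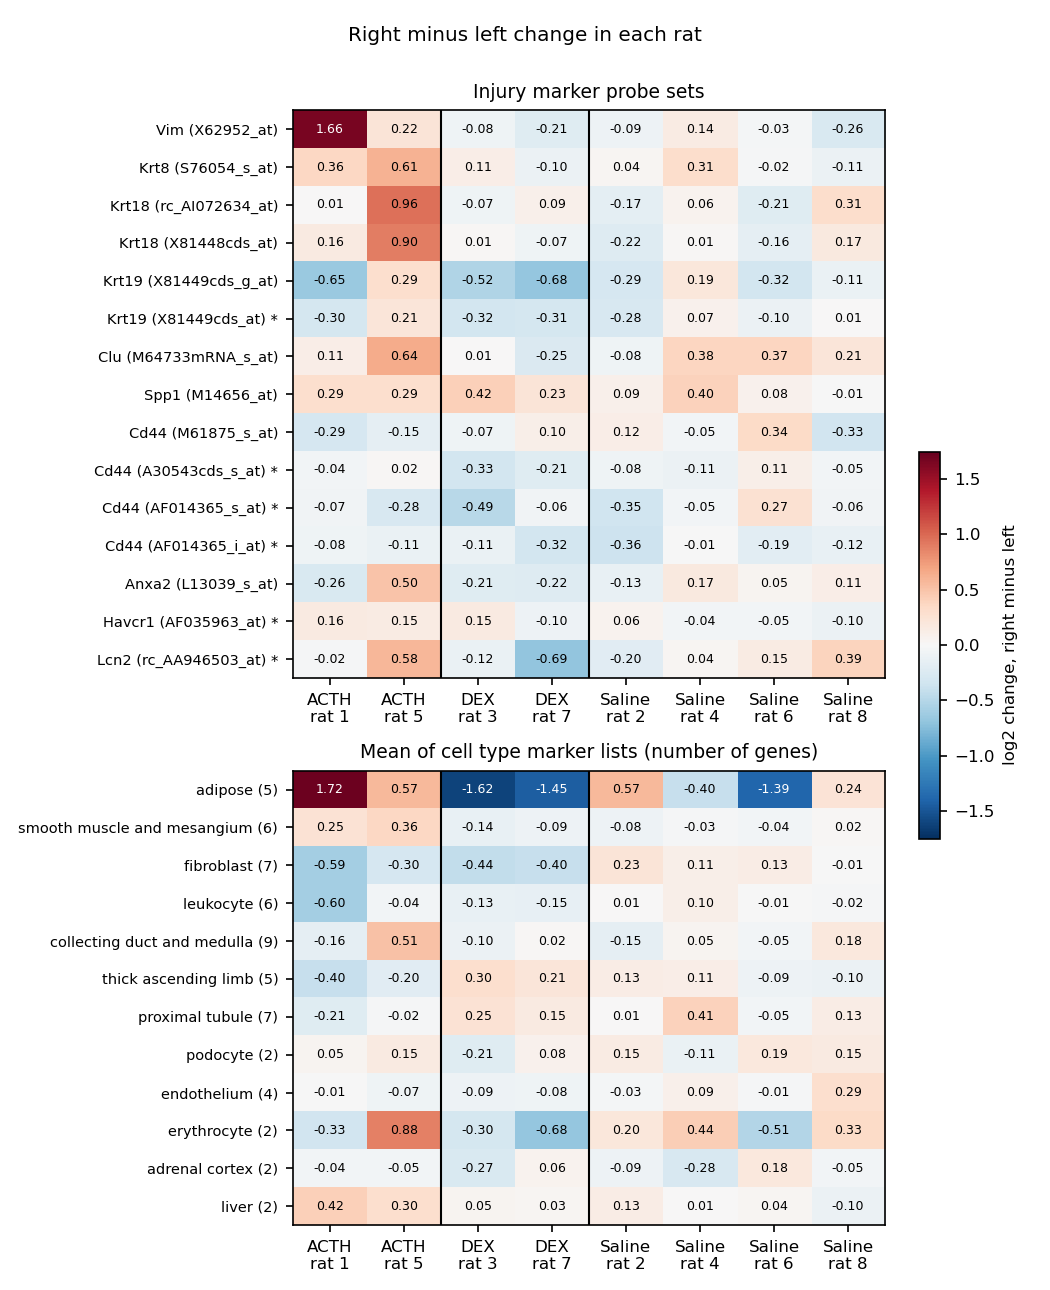
Right minus left change (colour and printed value, log2) of each injury marker probe set in the upper panel and of the mean of each cell type marker list in the lower panel, with 1 column per rat grouped by treatment. An asterisk marks a probe set below the brightness limit, and numbers in brackets count the tested genes of a list. Vim and the adipose list are both near 1.7 in ACTH rat 1. In ACTH rat 5 Krt8, Krt18, Clu, Anxa2 and Lcn2 are above 0.5, as are the collecting duct and medulla, adipose and erythrocyte lists.

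Counted over all 10 genes, the right kidney was higher for 6 genes in ACTH rat 1 (median change 0.06) and 9 genes in ACTH rat 5 (0.40). It was higher for 4 and 3 genes in DEX rats 3 and 7 (medians -0.07 and -0.16), and for 4, 8, 5 and 4 genes in saline rats 2, 4, 6 and 8 (medians -0.09 to 0.16). Of all tested probe sets the right kidney was higher for 46.6% in rat 1 and 55.0% in rat 5, for 55.5% and 51.7% in the DEX rats and for 48.5% to 57.8% in the saline rats. A change above 0.5 was seen for 1 gene in rat 1 and 5 genes in rat 5, and for 0 genes in each of the other 6 rats. The 5 genes include Lcn2, which lay below the brightness limit. In the other direction, Krt19 changed by -0.65, -0.52 and -0.68 in rats 1, 3 and 7, and Lcn2 by -0.69 in rat 7. Over all tested probe sets the share above 0.5 was 4.84% in rat 1 and 6.96% in rat 5, and between 0.877% and 3.74% in the other rats. Of the 9 tested probe sets, 2 (Vim and Krt8) had both ACTH rats above all saline rats, a background of 7.82%.

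No injury marker passed the test for DEX either. In limma 0 of 9 tested probe sets had an adjusted p below 0.05 for the DEX effect over saline, against 0.0% of all, and 0 of 9 had an unadjusted p below 0.05, against 2.94% of all. The median effect over the 8 tested genes was -0.07, against -0.00 over all probe sets. Vim had a signal of 144 and 167 in the DEX right kidneys, against 126 to 160 in the saline right kidneys, and an effect of -0.08 ± 0.30 (95% interval -0.73 to 0.56). The paired keratins had DEX effects near 0. Krt8 had a signal of 382 and 512 in the DEX right kidneys, against 341 to 593 in the saline right kidneys, and an effect of -0.05 ± 0.18 (-0.43 to 0.33). Krt18 had a signal of 62.2 and 115 at its brighter probe set, against 53.3 to 92.8 in the saline right kidneys, and its 2 probe sets had effects of 0.01 and 0.02. Cd44 had a DEX effect of -0.01 ± 0.18 (-0.39 to 0.38).

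Among the tested genes the lowest DEX effects were those of Krt19, Clu and Anxa2. Krt19 had a right minus left change of -0.52 and -0.68 in the DEX rats, against -0.29, 0.19, -0.32 and -0.11 in the saline rats. Its DEX effect was -0.47 ± 0.23 (95% interval -0.97 to 0.04) with an adjusted p of 0.999 in limma, and its dimmer probe set changed by -0.32 and -0.31. The right kidneys themselves did not show it: compared without the left kidneys, DEX over saline was 0.24. The left kidneys of the DEX rats had the signals 148 and 180, among the 3 highest of the 8. Anxa2 had a signal of 324 and 506 in the DEX right kidneys, against 351 to 558 in the saline right kidneys. Its changes of -0.21 and -0.22 in the DEX rats were also below all saline rats, with an effect of -0.26 ± 0.21 (-0.71 to 0.19). These 2 of 9 tested probe sets had both DEX rats below all saline rats, a background of 6.33%. Clu had a signal of 585 and 875 in the DEX right kidneys, against 586 to 894 in the saline right kidneys, and changes of 0.01 and -0.25, with an effect of -0.34 ± 0.20 (-0.78 to 0.09).

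**Figure D3:**
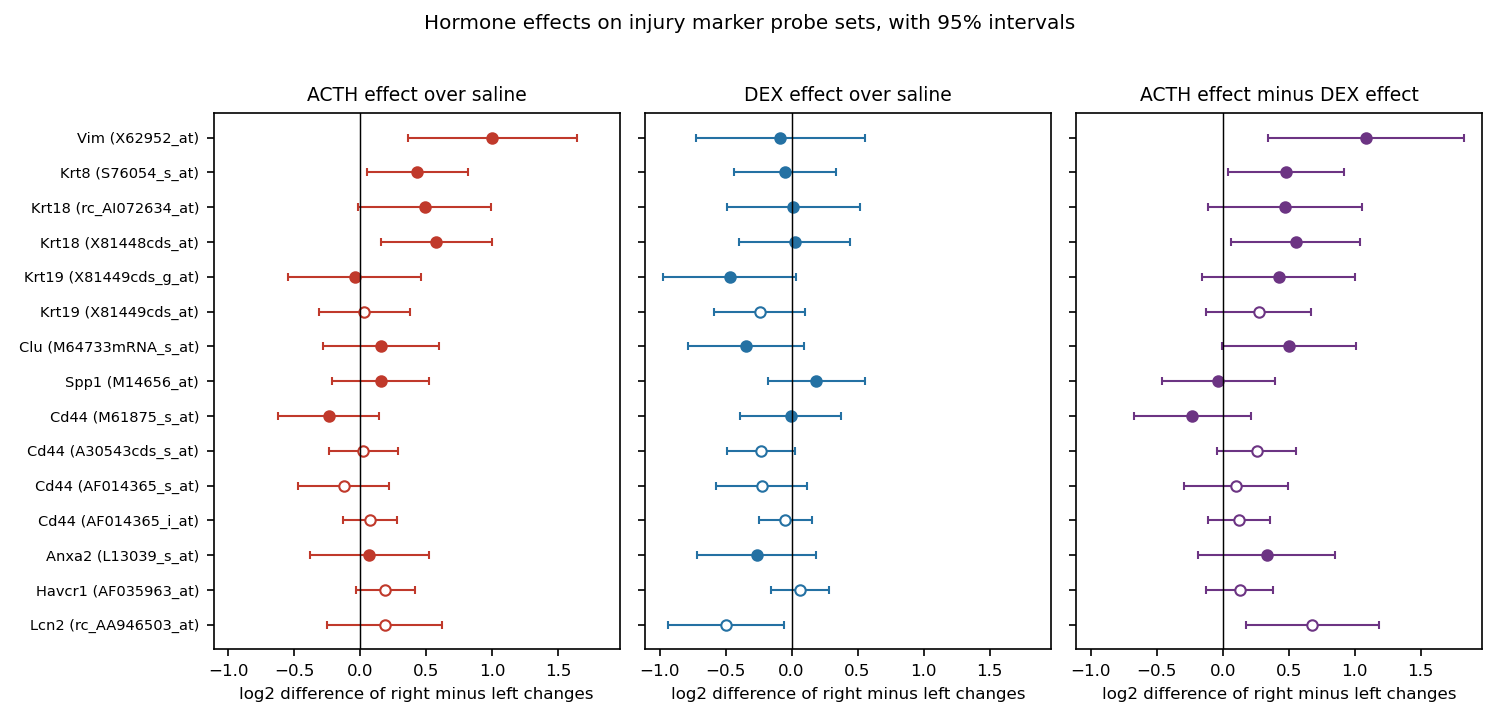
ACTH effect over saline, DEX effect over saline and their difference (horizontal axes, log2 difference of right minus left changes) for each injury marker probe set. Points are limma estimates with 95% intervals, open where the probe set was below the brightness limit and fitted without that limit. Among the tested probe sets the intervals for Vim, Krt8 and 1 Krt18 probe set lie above 0 for ACTH and for the difference before adjustment, and none has an adjusted p below 0.05.

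The direct difference, ACTH effect minus DEX effect, takes its size from the ACTH and DEX rats and its error from all 8 rats. It had 0 of 9 tested injury marker probe sets past the threshold in limma, against 0.572% of all, and 3 of 9 at an unadjusted p below 0.05, against 12.2% of all. The median over the 8 genes was 0.45, against 0.02 over all probe sets, and 6 of 8 genes were above 0, against 53.0% of all. Vim differed by 1.08 ± 0.34 (95% interval 0.34 to 1.82), with an adjusted p of 0.231. Without rat 1 the difference was 0.37, and without rat 5 it was 1.80. Of 5 tested adipose markers, Ucp1, Fabp4 and Cfd passed for the same difference, at 3.27, 3.05 and 2.48 with adjusted p of 0.0351, 0.0476 and 0.0489 in limma, and each lost the call without rat 1, 3, 4 or 7, and Fabp4 and Cfd also without rat 8. Krt8 differed by 0.48 ± 0.20 and Clu by 0.50 ± 0.23, with adjusted p of 0.374 and 0.418. Spp1 differed by -0.03 ± 0.20 (95% interval -0.46 to 0.39). The untested Lcn2 differed by 0.68 ± 0.24 without the brightness limit, with an adjusted p of 0.372.

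The right minus left change within each treatment was also fitted. In ACTH rats 0 of 9 tested injury marker probe sets passed in limma, against 3.57% of all, and 5 of 9 had an unadjusted p below 0.05, against 18.4% of all. Vim came nearest, at 0.94 ± 0.24 with an adjusted p of 0.0532, followed by Krt8 at 0.48 ± 0.14 (0.0876) and Krt18 at 0.53 ± 0.16 (0.0929). Vim was 1.66 without rat 5 and 0.22 without rat 1. The brighter and the second Krt18 probe set were 0.96 and 0.90 without rat 1, and 0.01 and 0.16 without rat 5. In DEX rats 0 of 9 passed, against 0.0% of all, and 2 of 9 had an unadjusted p below 0.05, against 5.91%: Krt19 at -0.60 ± 0.19 and Spp1 at 0.33 ± 0.14. In saline rats 0 of 9 passed, against 0.0% of all, and 0 of 9 had an unadjusted p below 0.05, against 3.74% of all.

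Other genes of the injury response were taken from lists. Of 30 urinary and secreted injury proteins, 19 were tested, and 0 passed for the ACTH or the DEX effect in limma. At an unadjusted p below 0.05 there were 5 higher and 4 lower for ACTH, against 9.44% of all probe sets in either direction, and 0 higher and 2 lower for DEX, against 2.94%. For DEX the 2 were Ccl2, a monocyte chemokine, at -0.49 ± 0.18 and Lgals1 at -0.44 ± 0.18, both with an adjusted p of 0.999 in limma. Ccl2 changed by -0.47 and -0.85 in the DEX rats, against -0.22 to -0.05 in the saline rats. In ACTH rats 1 and 5 it changed by -0.65 and -0.01, so ACTH and DEX overlapped. Over the 19 tested genes the median ACTH effect was -0.16 and the median DEX effect -0.06. The calls in the other comparisons included the galectins Lgals1 and Lgals3, sugar-binding proteins released in inflammation and fibrosis. The ACTH effect exceeded the DEX effect by 1.31 ± 0.21 for Lgals1 (adjusted p 0.0259) and by 1.22 ± 0.22 for Lgals3 (adjusted p 0.0331). These were the only 2 of the 19 past the threshold in limma, against 0.572% of all probe sets. Lgals1 changed by 1.06 and 0.81 in ACTH rats 1 and 5, against -0.31 and -0.45 in the DEX rats and -0.27 to 0.22 in the saline rats. Lgals3 changed by 0.81 and 1.18 in the ACTH rats, against -0.24 and -0.21 in the DEX rats and -0.28 to 0.40 in the saline rats, so no ACTH rat overlapped the others for either gene. Their ACTH effects over saline, 0.88 ± 0.18 and 0.94 ± 0.19, had adjusted p of 0.0613 and 0.0552. With the adipose score as a covariate the ACTH minus DEX difference was 0.72 for Lgals1 and 0.97 for Lgals3, with adjusted p of 0.453 and 0.380. With right kidneys alone it was 0.99 and 1.03, with adjusted p of 0.786 and 0.661 in limma. In either setting 0 of all tested probe sets were called for this difference. Leaving out 1 rat ended the call for Lgals1 without rat 3, 4 or 7 and for Lgals3 without rat 2, 3, 4, 5 or 7, with differences of 1.04 to 1.44 throughout.

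Within the ACTH rats, 6 of those 19 genes passed for right against left, 4 higher and 2 lower, against 2.02% of all probe sets higher and 1.54% lower. Lgals3 rose by 0.99 ± 0.15 and Lgals1 by 0.94 ± 0.15, and Calb1, the calcium-binding calbindin of the distal tubule, rose by 0.77 ± 0.16. Fga, the fibrinogen alpha chain, rose by 0.59 ± 0.15. Egf, the growth factor precursor of the thick ascending limb and distal tubule, fell by 0.78 on the log2 scale (SE 0.17), and Tff3, a secreted trefoil peptide, fell by 0.70 (SE 0.16). Adjusted p in limma was 0.00447 for Lgals3, 0.00512 for Lgals1, 0.0243 for Calb1, 0.0477 for Fga, 0.0280 for Egf and 0.0351 for Tff3. Calb1 was also higher on the right in both DEX rats, by 0.75 and 0.42, and in 3 of 4 saline rats, so its values overlapped between treatments. Egf changed by -0.90 and -0.67 in the ACTH rats, against 0.62 and 0.01 in the DEX rats and -0.23 to 0.26 in the saline rats. The call was lost without rat 5 for Lgals3, Calb1, Egf and Fga and without rat 1 for Egf, Tff3 and Fga. Tff3 lost it also without rat 2, 3, 7 or 8, and Fga without rat 3, 4 or 7, with pseudocount 1, without the brightness limit and without the intensity trend. Without rat 1 the Tff3 change was -0.35, and without rat 5 it was -1.05. The thick ascending limb markers, which include Egf, had a mean change of -0.40 and -0.20 in the ACTH rats, 0.30 and 0.21 in the DEX rats and -0.10 to 0.13 in the saline rats.

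The other injury gene lists held no call in limma for the ACTH effect, the DEX effect or their difference. Of 17 dedifferentiation and progenitor genes, 10 were tested, with a median ACTH effect of 0.15 and a median DEX effect of -0.02. Hspb1, a small heat shock protein, had an ACTH effect of 0.52 ± 0.17 (adjusted p 0.299), and Egr1, an immediate early transcription factor, had 1.08 ± 0.59 for ACTH and 1.32 ± 0.59 for DEX (adjusted p 0.610 and 0.999). The right minus left change of Egr1 was -0.49 in ACTH rat 1 and 1.34 in ACTH rat 5, with -0.10 and 1.44 for the DEX pair and -1.55 to 0.53 for saline. Its effects were 0.16 for ACTH without rat 5 and 0.56 for DEX without rat 7. Jun, an AP-1 subunit, had a DEX effect of 0.43 ± 0.20 (adjusted p 0.999). ACTH minus DEX was 0.80 ± 0.20 for Hspb1 and -0.56 ± 0.23 for Jun (adjusted p 0.110 and 0.357). At an unadjusted p below 0.05 the counts were 1 of 10 for ACTH, against 9.44% of all, and 1 of 10 for DEX, against 2.94%. Of 29 cytoskeletal, annexin and S100 genes, 19 were tested, with medians of 0.09 and -0.01. Tmsb4x, the actin-sequestering thymosin beta 4, had values of -0.46 ± 0.18 for ACTH and -0.44 ± 0.18 for DEX (adjusted p 0.434 and 0.999). Des, the muscle filament desmin, had an ACTH effect of 0.38 ± 0.15 and an ACTH minus DEX difference of 0.39 ± 0.18 (adjusted p 0.449 and 0.404). The DEX effect on Tubb5, a tubulin, was -0.36 ± 0.17, and S100a4, a calcium-binding protein, differed by 0.86 ± 0.42 between ACTH and DEX (adjusted p 0.999 and 0.436). The ACTH rats were opposite in sign for S100a4, with changes of -0.73 in rat 1 and 0.70 in rat 5. Its changes were -0.64 and -1.12 in the DEX rats and -0.54 to 0.59 in the saline rats. At an unadjusted p below 0.05 there were 1 higher and 1 lower of 19 for ACTH, against 9.44% of all, and 1 of 19 for DEX, against 2.94%. Of 13 receptors and binding partners of the secreted markers, 2 were tested: Lrp2, the endocytic receptor megalin, with -0.59 ± 0.25 for ACTH and -0.20 ± 0.25 for DEX, and Itgb1 with 0.09 and 0.08.

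Genes of the healthy proximal tubule, which fall when tubule cells are damaged, were read beside the injury markers. All 17 of those on the array were tested, out of 20 listed, and 0 passed in limma for ACTH, DEX or their difference. Their median ACTH effect was -0.14 with 6 of 17 above 0, against 49.9% of all probe sets, and their median DEX effect was 0.17 with 14 of 17 above 0, where 49.5% of all probe sets were above 0 for DEX. At an unadjusted p below 0.05 there were 4 lower for ACTH, 1 higher for DEX and 6 lower for the difference, against 9.44%, 2.94% and 12.2% of all probe sets in either direction. Anpep, a brush border peptidase, had an ACTH effect of -0.70 ± 0.23 (adjusted p 0.291), with changes of -0.99 in rat 1 and -0.34 in rat 5, and the effect was -0.38 without rat 1. Slc3a1, the cystine transporter subunit, had -0.39 ± 0.13 for ACTH and -0.56 ± 0.15 for ACTH minus DEX (adjusted p 0.322 and 0.146). Mme, the brush border endopeptidase neprilysin, differed by -0.82 ± 0.22 between ACTH and DEX, with an adjusted p of 0.140. For DEX over saline Mme had 0.44 ± 0.19 and Acsm2, a medium-chain acyl-CoA synthetase, 0.34 ± 0.16, both with an adjusted p of 0.999. The tissue carried its defining markers: the proximal tubule list summed to 13602 to 16222 in the ACTH right kidneys, 18837 to 19109 in the DEX right kidneys, 17291 to 19488 in the saline right kidneys and 16245 to 18539 in the left kidneys. Bright genes weigh most in such a sum. The mean right minus left change of the list was -0.21 in rat 1 and -0.02 in rat 5. It was 0.25 and 0.15 in the DEX rats and -0.05 to 0.41 in the saline rats. Of the 7 tested genes of this list 1 passed for the ACTH effect and for the difference, against 0.496% and 0.572% of all probe sets. It was Kap, the kidney androgen-regulated protein, which is part of the sum. Kap is not among the healthy proximal tubule genes above and is named here after its values were seen. Kap changed by -0.71 and -0.97 in the ACTH rats, against 0.14 and 0.15 in the DEX rats and -0.09 to -0.01 in the saline rats. Its ACTH effect was -0.78 ± 0.12 and its ACTH minus DEX difference -0.99 ± 0.14, with adjusted p of 0.0180 and 0.0161 in limma. The ACTH call was lost without rat 2, 4 or 5, and that for the difference without rat 3 or 7. Right minus left in the ACTH rats it was -0.84 ± 0.10, with an adjusted p of 0.000860.

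The left control kidneys also differed between 2 sets of rats, for the injury markers at about the share seen over all probe sets. All 16 arrays fell into 2 clusters, rats 1 to 4 and rats 5 to 8, each with 1 ACTH, 1 DEX and 2 saline rats, which the labels do not name. In the left control kidneys, Krt8 averaged 333 ± 33.8 in rats 1 to 4 and 547 ± 48.8 in rats 5 to 8 (SD, n = 4 each). Anxa2 averaged 395 ± 53.9 in rats 1 to 4 and 549 ± 41.6 in rats 5 to 8, and the second Krt18 probe set 59.0 ± 7.69 in rats 1 to 4 and 87.5 ± 12.5 in rats 5 to 8. Spp1 ran the other way, with 736 ± 91.7 in rats 1 to 4 and 491 ± 102 in rats 5 to 8. These 4 of 9 tested probe sets did not overlap between the clusters, and of all tested probe sets 35.8% did not. Within rats 1 to 4 the ACTH effect was 1.63 for Vim, 0.19 for Krt8 and 0.07 for the brighter Krt18 probe set, and within rats 5 to 8 it was 0.37, 0.67 and 0.91, with 1 ACTH rat each and no test. For Anxa2 the values were -0.28 and 0.42, opposite in sign. For Krt19 the DEX effect was -0.47 in the first cluster and -0.46 in the second.

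**Figure D4:**
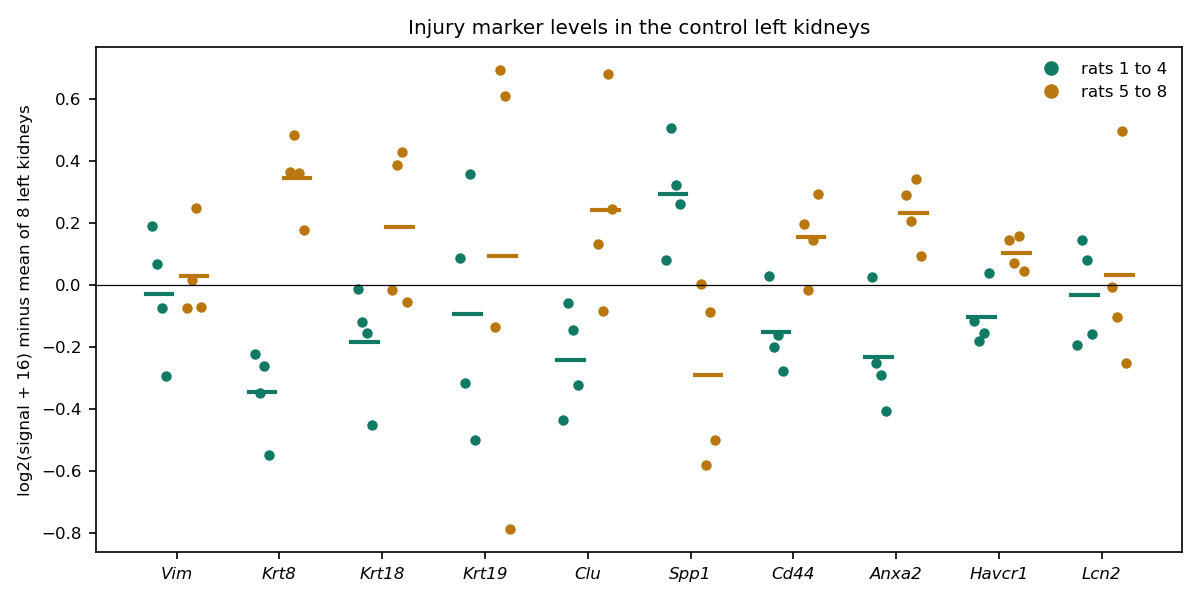
Level of each injury marker in the 8 left control kidneys (vertical axis, log2(signal + 16) minus the mean of the 8), with points for single rats and bars for the mean of rats 1 to 4 and of rats 5 to 8. Krt8 and Anxa2 lie lower in rats 1 to 4 and Spp1 lies higher there, without overlap.

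For each tested marker, the 3 genes with the most similar right minus left changes were listed by Pearson correlation over the 8 rats, which share 16 arrays and the same 2 clusters. These are descriptions over few rats, chosen as the highest of 3193 genes. For Vim and Krt18, 1 rat carries most of the weight in the correlation. Vim changed by 1.66 in rat 1 and by -0.26 to 0.22 in the other rats. The brighter Krt18 probe set changed by 0.96 in rat 5 and by -0.21 to 0.31 in the other rats. Vim was most like Agt, angiotensinogen (0.989), Slc2a4, the insulin-responsive glucose transporter (0.986), and S100b (0.964). Krt18 was most like Ercc1, a DNA repair protein (0.987), Gpx2, a glutathione peroxidase (0.984), and Dnm1, a dynamin (0.970). For Krt8 they were Bak1, a pro-apoptotic Bcl-2 family protein (0.969), mrpl24 (0.957) and Ddt (0.951). Krt19 and Anxa2 shared Dctn1, a dynactin subunit (0.959 and 0.975), beside Alkbh2 (0.969) and Nr1h2 (0.955) for Krt19 and Mcm7 (0.974) and Man2c1 (0.970) for Anxa2. Clu was closest to Dmac2 (0.961), Wrap73 (0.942) and Ivd (0.939), and Spp1 to Psmc3 (0.975), Pxn (0.965) and Rpl3 (0.957). Cd44 had the lowest likeness, with Csf2rb (0.910), Pak1 (0.907) and Gfra1 (0.894).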

How the data were processed

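Total RNA of rat kidneys was made into biotin-labelled cRNA and hybridised to 16 one-colour arrays, per the labels' protocols. The authors deposited 1 signal intensity per probe set on a linear scale, with the software and normalization not given in the sources used here. Medians of the arrays lay between 76.0 and 82.1, and no further normalization was applied. The number of arrays limits the precision.

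After removing 59 control probe sets, 8740 remained. The lowest 40% by mean log2(value + 16) were left out, 3496 probe sets, and 5244 were tested. The platform annotation gave 7006 probe sets 1 symbol, 308 several and 1426 none. Each gene is described by its brightest probe set, with the others beside it. limma 3.58.1 in R 4.3.3 was fitted with a term for each rat, one for the right kidney and separate ones for ACTH and DEX, with an intensity trend, 5 residual degrees of freedom and a prior of 7.34. Tests were two-sided. The p-values rest on the spread between rats, pooled over the treatments, and on a prior taken from all tested probe sets. They do not measure the spread among the ACTH or the DEX rats, with 2 rats each.

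The rat is a block because both kidneys come from 1 animal. Deviations of the 2 kidneys from their group means correlated at 0.55 to 0.71 in all 8 rats. The fit was also run on simulated data with the same spread in every treatment and no clusters. That run cannot show how the fit does where rats of 1 treatment differ sharply or arrays fall into clusters. Alternatives changed the pseudocount, filter, normalization, block, trend, clusters, adipose covariate and the rats included. Named genes are the 10 markers, and for each injury list the 2 genes with the smallest p in each comparison of ACTH, DEX and saline, and any past the threshold; Kap and other called cell type markers were named after their values were seen. The markers, lists and tests were chosen with earlier results of these data known.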

Additional observations from a re-analysis of the deposited data

Results flagged for a closer look

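Lcn2 in the left control kidney of DEX rat 7 had a signal of 69.7, far from the other 7 left kidneys, which lay between 35.0 and 51.2. It was the 1 value set apart among 33 groups examined, and chance sets apart about 1 group in 20. The right minus left change of Lcn2 was -0.69 in this rat and -0.12 in the other DEX rat.

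Vim differed between ACTH and DEX by 1.08 on the log2 scale, with both ACTH rats higher on the right (1.66 and 0.22) and both DEX rats lower (-0.08 and -0.21). The test of this difference gave an adjusted p of 0.231 in limma, so it did not pass the threshold. The difference was 0.37 without rat 1 and 1.80 without rat 5.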

How the results depend on the processing

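With 2 rats per hormone, each hormone value rests on 4 arrays. Of 105 counts of injury marker calls under the alternatives, 98 stayed at 0. With all rats kept, 1 marker was called for the right minus left change in ACTH rats with the lowest 60% of probe sets left out, and 1 with a separate term for the 2 clusters, both times Vim (adjusted p 0.0454 and 0.0249). With 1 rat left out at a time the counts were 0 to 1 for the ACTH effect, 0 to 1 for ACTH minus DEX and 0 to 2 for right minus left in ACTH rats. The lone ACTH rat is then assumed to vary like the others. Of 951 settings of single probe sets, 8 passed the threshold. The same settings were applied to called list genes, called cell type markers, Egr1 and Anpep after the data had been seen. Kap lost both calls without the block, with right kidneys alone and with the adipose covariate. Col3a1 lost its call in these settings and also with quantile normalization. The 3 adipose markers lost theirs without the block and with right kidneys alone. Fabp4 and Cfd also lost theirs with pseudocount 64, with quantile normalization and without the intensity trend. All 3 lost theirs with the adipose covariate too, but that score is a mean that includes these genes, so this setting cannot test them.

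Counts over all probe sets moved more. The 26 for the ACTH effect became 12 under quantile normalization and 0 with right kidneys alone or the adipose covariate, and 9 to 114 with 1 rat left out. The 30 for ACTH minus DEX became 0 with right kidneys alone or the adipose covariate and 74 with the cluster term, and 2 to 100 with 1 rat left out. The 187 for right minus left in ACTH rats became 290 with the cluster term, and 119 to 272 with 1 rat left out. In saline rats the count of 0 became 1 with pseudocount 1, without the filter, with the lowest 60% left out, with quantile normalization or without the trend, 4 with the adipose covariate, and 0 to 1 with 1 rat left out. For DEX the counts with 1 rat left out were 0 to 3 over saline, the 3 without rat 3, and 0 to 4 for right minus left.

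Without the replicate block the counts were 14 for the ACTH effect, 0 for ACTH minus DEX and 51 for right minus left in ACTH rats, and no injury marker was called. Of the 6 list genes called for right minus left in ACTH rats, Lgals3 and Fga kept the call without the block, and Lgals3 alone with the adipose covariate; Lgals1 and Lgals3 both lost the ACTH minus DEX call without the block. The DEX effect on Krt19 was then 0.24, as with right kidneys alone, and its ACTH minus DEX difference -0.084 in both.

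A change of sign was counted as a reversal only where the main value was larger than its SE. Of the 951 settings of single probe sets 14 were such reversals, and 80 had a sign opposite to the main value at any size. Other reversals were the ACTH effect on Cd44, 0.00526 with the adipose covariate and 0.023 and 0.075 at 2 other probe sets, and its ACTH minus DEX difference, 0.24 with the covariate and 0.26, 0.10 and 0.12 at the 3 other probe sets. With 1 rat left out, ACTH minus DEX ran from -0.0033 to 0.95 for the brighter Krt18 probe set, -0.046 to 0.89 for Krt19 and -0.050 to 0.71 for Anxa2, lowest without rat 5 and highest without rat 1. The cause of these shifts was not tested.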
